A study of Danio rerio with 18 samples.

Results

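Ribose methylation of ribosomal RNA (rRNA) was compared between protruding-mouth larvae and unfertilized eggs of the zebrafish, Danio rerio. The members are the 3 egg and the 3 protruding-mouth libraries, taken by their stage labels, which are 6 of the 14 RiboMeth-seq libraries and 6 of the 18 samples of the series. The values are those of the 98 rRNA sites that the authors list, with 35 on the 18S, 60 on the 28S and 3 on the 5.8S molecule. The other 8 RiboMeth-seq libraries are 3 of 32-cell embryos, 3 of 12-somite embryos and 2 of adult tail. They entered the comparison only through the estimate of each site's spread. The labels give the stage and the RNA fraction of each group. They give no strain, genotype, treatment or number of animals per sample. The egg is a single cell and the larva is a whole animal of many tissues, so a larval value is an average over rRNA of all of them. Fewer cells of a type and less rRNA per cell cannot be told apart in such samples.

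Most 2'-O-methyl groups of eukaryotic rRNA are placed in the nucleolus by box C/D small nucleolar ribonucleoproteins. In each particle a guide RNA (snoRNA) pairs with the rRNA around the target nucleotide, and the enzyme fibrillarin adds the methyl group. Zebrafish carry separate ribosomal DNA for the oocyte and for somatic cells, so that the egg is stocked with maternal-type rRNA that somatic-type rRNA replaces as development proceeds. Both types differ in sequence, and a base change beside a site lies within the stretch to which a guide would pair.

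RiboMeth-seq breaks RNA with alkali and counts where the fragments end. A 2'-O-methyl group blocks the break on its 3' side, which leaves few read ends at a methylated nucleotide. The RiboMeth-seq score used throughout is 1 minus the ratio of the ends at a site to a weighted mean of the ends at the 6 positions on each side. It runs from 0 for no protection to 1 for full protection, and values under 0 are set to 0. Per the file headers, the reads of the egg had been mapped to the maternal sequence, called early rRNA, and those of the larva to the somatic sequence, called late rRNA. The early and late rRNAs were 94.58% identical over paired positions in 18S, 91.89% in 28S and 95.54% in 5.8S. Of the 98 sites, 16 had a difference between early and late rRNA within 6 positions, which is the window of the score.

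The sequences below, read from the deposited stage sheets, show the rRNA around the sites on which the results turn, 10 nt on each side, 5' to 3', with the listed nucleotide in capitals. For 28S-Cm3916, 28S-Am4560, 28S-Um4590, 18S-Am1637 and 18S-Cm346 the early and late sequences differ in the stretch shown, at 18S-Cm346 only outside the 6 positions of the score. For 28S-Um4276 and 28S-Am1521 they are identical and 1 line is given. Site names are those of the authors, which follow human numbering.
28S-Cm3916, early rRNA position 3197: uagucuggccCugugaagaga
28S-Cm3916, late rRNA position 3085: uagucuggcaCugugaagaga
28S-Am4560, early rRNA position 3860: ugcaauaguaAucccgcucag
28S-Am4560, late rRNA position 3709: ugcaauaguaAuccugcucag
28S-Um4590, early rRNA position 3890: aaccgcggguUcagacauuug
28S-Um4590, late rRNA position 3739: aaccgcagguUcagacauuug
18S-Am1637, early rRNA position 1702: cccgagaacgAggaauuccca
18S-Am1637, late rRNA position 1656: cccaucaacgAggaauuccca
28S-Um4276, early 3574 and late 3424: ugauuuucagUaugaguacgg
18S-Cm346, early rRNA position 392: acgguucauuCgaaugucugc
18S-Cm346, late rRNA position 356: acgauucauuCgaaugucugc
28S-Am1521, early 1132 and late 1121: aagauggugaAcuaugccugg
The substitution at 28S-Cm3916 is the base directly 5' of the listed nucleotide. At 28S-Um4590 it lies 4 nt upstream and at 28S-Am4560 it lies 4 nt downstream.

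The egg libraries held 15358081, 13359005 and 7948776 read ends, and the protruding-mouth libraries held 6167658, 14995356 and 7067258. The mean number of ends at the flanking positions of a site was 130.8 or more in all 6 libraries, with a median of 1646. Among the libraries of the other stages, the third 12-somite library stood apart, with 10.42% of its ends on 10 positions. The egg and larval libraries had no barcode in common, and no stage connected their barcode sets. Stage, rRNA reference and barcode set therefore cannot be told apart in this comparison. Replicates are biological per the series' description. In the main limma fit, a p-value set the stage difference against the spread between libraries within stages, estimated over all 14 libraries.

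Most sites were close to fully protected at both stages. The median score over the 98 sites was 0.948 ± 0.0129 in egg and 0.934 ± 0.0147 in protruding-mouth larvae (SD, n = 3 each), a difference of -0.0135 (exact permutation test, two-sided p = 0.3, where 3 against 3 cannot go below 0.1). The larval mean was the higher at 37 sites and the lower at 61, and the median difference over sites was -0.0112. At 69 sites (70.4%) the stage means were under 0.05 apart. With limma on the scores, 2 of the 98 sites (2.04%) passed an adjusted p of 0.05, 1 higher in larvae (1.02%) and 1 lower (1.02%). Those were 28S-Cm3916 and 28S-Um4276. At an unadjusted p under 0.05 there were 12 sites (12.2%), 5 with higher larval means (5.1%) and 7 with lower ones (7.14%), and at 11 of the 12 the egg and larval libraries did not overlap.

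**Figure D1:**
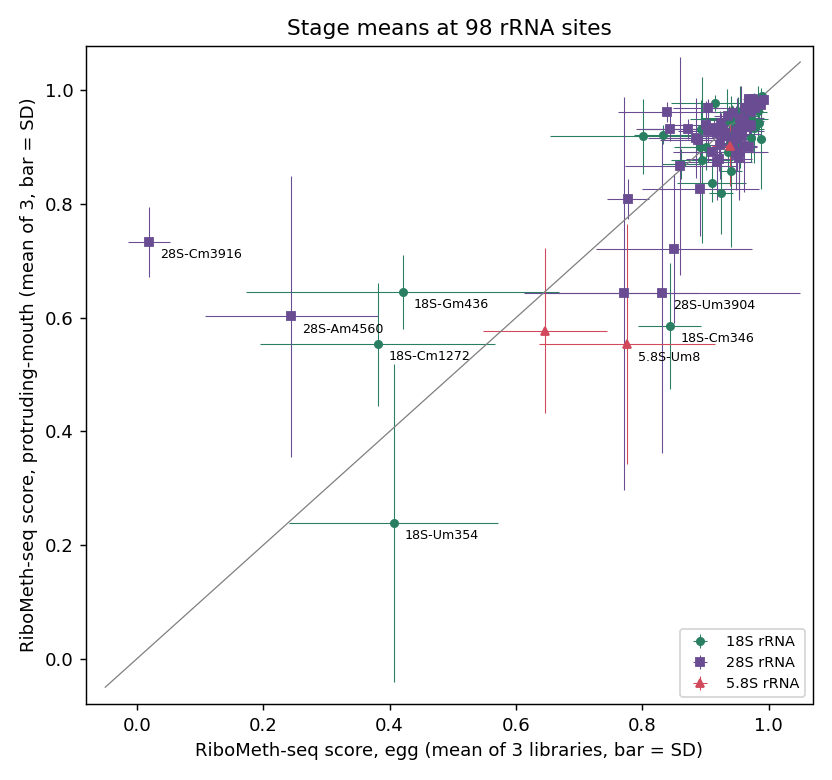
Mean RiboMeth-seq score of each of the 98 sites in egg (horizontal axis) against protruding-mouth larvae (vertical axis), with bars of 1 SD over 3 libraries, colours and shapes for the 18S, 28S and 5.8S rRNA and a line of equality. Most sites lie in the upper right corner near the line, and 28S-Cm3916, with means of 0.0193 and 0.733, lies farthest from it.

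28S-Cm3916 was unprotected in egg and largely protected in larvae. Its score was 0, 0.0579 and 0 in the 3 egg libraries and 0.779, 0.757 and 0.663 in the 3 protruding-mouth libraries. All larval libraries lay far above all egg libraries. The score rose by 0.714 (SE 0.109, 95% interval 0.471 to 0.956, limma adjusted p = 0.00542). In egg the site was hit about as often as its surroundings, with 3216, 2409 and 2909 read ends at the nucleotide against weighted flanking means of 3122, 2557 and 2562. In larvae it was hit far less often, with 345, 1236 and 708 ends against flanking means of 1562, 5088 and 2102. The plot of read ends around the site shows the dip at the nucleotide in the larval libraries alone.

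The rise at 28S-Cm3916 was seen with either end of the reads. From 5' ends alone the score was at its lower limit of 0 in each egg library and 0.682, 0.774 and 0.734 in the larval ones. That difference was 0.730 (limma adjusted p = 0.00552 over egg, 32-cell, 12-somite and protruding-mouth libraries). From 3' ends alone it was 0.229, 0.201 and 0.231 in egg and 0.832, 0.744 and 0.661 in larvae, again without overlap, although this fit called no site (adjusted p = 0.236). Each of the 14 libraries was left out in turn and the site passed every time, with adjusted p from 0.000103 to 0.0365.

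At 28S-Cm3916 the embryonic stages lay between egg and larva, and adult tail lay above the larva. The 32-cell libraries gave 0.226, 0.522 and 0.346 and the 12-somite libraries 0.622, 0.528 and 0.138. Both stages were mapped to the same early rRNA as the egg, and all 6 of their libraries lay above the 3 egg libraries. This also held from 5' ends alone. From 3' ends alone 32-cell library 1 (0.183) and 12-somite library 3 (0.137) lay below all 3 egg libraries, and the others above. The 12-somite libraries carried the barcodes of the larval ones, and 32-cell libraries 2 and 3 carried barcodes of the egg. The part of the barcodes in these scores was not tested. The adult tail libraries gave 0.898 and 0.904, above every larval library, on the same late rRNA. The 32-cell and 12-somite values overlap, so those neighbours in the order are not separated by their spread.

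**Figure D2:**
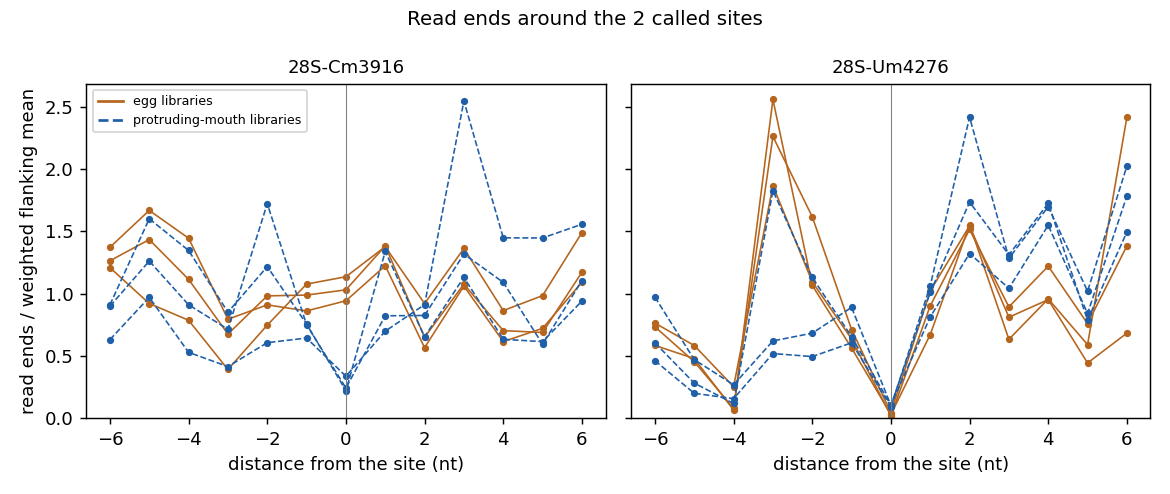
Read ends at each position divided by the weighted flanking mean of the site (vertical axis) against the distance from the site in nucleotides (horizontal axis), with 1 line for each of 3 egg libraries (solid) and 3 protruding-mouth libraries (dashed). At 28S-Cm3916 the egg libraries show no dip at distance 0 and the larval libraries do; at 28S-Um4276 all 6 libraries dip almost to 0.

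28S-Um4276, a site that SNORD41 guides in human cells, was close to full at both stages and slightly lower in larvae. Its score was 0.981, 0.970 and 0.955 in egg and 0.896, 0.897 and 0.909 in larvae. The groups did not overlap and each was tight. The score fell by 0.0680 (SE 0.0150, limma adjusted p = 0.0481). No base differs between early and late rRNA within 6 positions of it, and the listed site 28S-Um4272 lies 4 nt away. From 5' ends alone the libraries gave 0.99, 0.977 and 0.987 in egg and 0.886, 0.952 and 0.958 in larvae, still without overlap, but the difference of -0.0530 did not pass (adjusted p = 0.149). From 3' ends alone the groups overlapped, at 0.974, 0.954 and 0.861 in egg and 0.907, 0.889 and 0.903 in larvae. The call rested on a narrow margin: of the 14 libraries left out in turn, it was lost for 12. Without an egg or larval library the adjusted p was 0.0692 to 0.201. With each 32-cell library, the third 12-somite library or either adult library left out singly, it was 0.0753 to 0.0884. It held without the first or the second 12-somite library (0.0294 and 0.00517). The adult libraries, at 0.978 and 0.972, were back in the range of the egg.

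Protection was sorted into classes, full for a stage mean of at least 0.75, weak under 0.25 and partial between. In egg 92 sites were full, 4 partial and 2 weak. In larvae 87 were full, 10 partial and 1 weak. Of the 98 sites, 87 were full at both stages and 8 belonged to another class in larvae. The full sites that became partial by this count were 18S-Cm346, 28S-Um3904, 28S-Gm3923, 28S-Um4272 and 5.8S-Um8. 18S-Um354 went from partial to weak, and 28S-Cm3916 and 28S-Am4560 from weak to partial. With 5' ends alone only 3 sites differed in class, 28S-Cm3916, 28S-Am4560 and 5.8S-Um8, and egg and larvae both had 92 full sites. 5.8S-Um8 has no 3' end in its window, so its score is the same either way. Without the first egg library the count was 5 rather than 8. With class limits of 0.8 and 0.2 it was also 5.

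At 13 sites (13.3%) the stage means were at least 0.1 apart, 6 higher in larvae (6.12%) and 7 lower (7.14%). Among 5987 rRNA positions that the authors do not list, 45.6% were at least 0.1 apart, 26.3% higher and 19.3% lower. Libraries of a stage varied at the 13 sites too: at 10 of the 13, the SD within egg or within larvae was at least 0.1, against 14 of all 98 sites. The direction was the same from 5' ends alone at 11 of the 13, and 8 were at least 0.1 apart with both scores. Both counts include 5.8S-Um8, which has no 3' end in its window and so has the same score either way. Over all 98 sites the direction was kept at 78. The 5' ends are part of all ends, so such agreement is partly built in at every site. At 9 sites (9.18%) the means from 5' ends were at least 0.1 apart. The one of these that was not among the 13 was 28S-Cm2848, named after its values were seen, with a difference of -0.131 from 5' ends (adjusted p = 0.119) and -0.0655 from all ends.

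**Figure D3:**
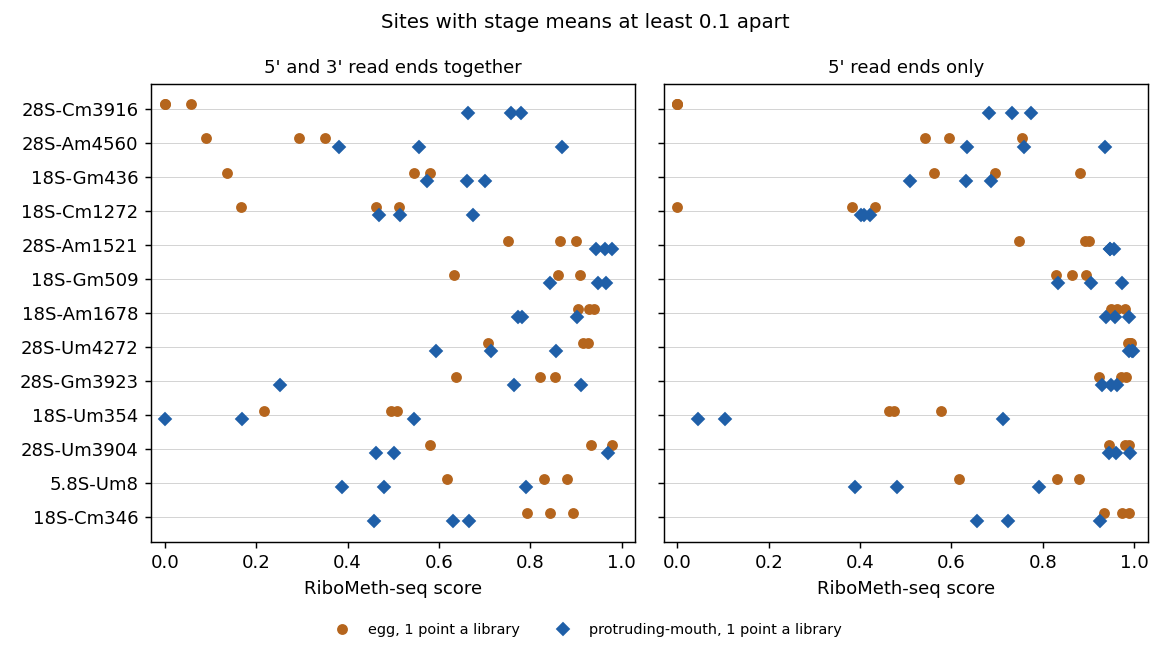
RiboMeth-seq score (horizontal axis) of every egg library (circles) and protruding-mouth library (diamonds) at the 13 sites with stage means at least 0.1 apart, from all read ends (left) and 5' ends alone (right). The groups are widely apart at 28S-Cm3916 in both panels, whereas the wide scatter of 28S-Um3904, 28S-Gm3923 and 28S-Um4272 on the left is absent on the right.

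Among the sites with higher larval means, 28S-Am4560 differed most after 28S-Cm3916. The egg libraries gave 0.0906, 0.351 and 0.293 and the larval libraries 0.556, 0.382 and 0.869. The groups did not overlap, but the difference of 0.358 (SE 0.185) did not pass the test (limma adjusted p = 0.437). With 2 unweighted flanking positions the groups overlapped, at 0.0576, 0.416 and 0.219 in egg and 0.494, 0 and 0.752 in larvae. Relative to the weighted flanking mean, larval library 2 had more ends at the nucleotide (0.618) than directly before (0.328) or after it (0.367). Larval libraries 1 and 3 had fewer there, at 0.444 (0.650 and 0.699) and 0.131 (0.470 and 0.161). From 5' ends alone the egg gave 0.541, 0.756 and 0.594 and the larvae 0.635, 0.759 and 0.936, so that the groups overlapped and the egg no longer appeared weak. In adult tail the score was 0.866 and 0.927. The 32-cell libraries ranged from 0 to 0.743 with all ends and from 0.842 to 0.915 with 5' ends alone.

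28S-Am1521 was lower in egg by a smaller and steadier amount. It gave 0.900, 0.865 and 0.752 in egg and 0.963, 0.943 and 0.980 in larvae, and from 5' ends alone 0.902, 0.892 and 0.748 against 0.947, 0.956 and 0.948. Neither pair of groups overlapped. The difference of 0.123 (SE 0.0357) had an unadjusted p of 0.00590 and did not pass after adjustment (adjusted p = 0.193). The adult libraries, at 0.958 and 0.971, lay within the larval range. 18S-Gm509 had egg scores of 0.861, 0.633 and 0.909 and larval scores of 0.948, 0.967 and 0.843, which overlap (difference 0.118, adjusted p = 0.437). The difference was 0.0411 from 5' ends alone (adjusted p = 0.664). It was 0.0412 (adjusted p = 0.619) with the authors' barcode-corrected egg mean, rebuilt by giving the second egg library its 5' end score. 18S-Gm509 has a sequence difference 3 nt upstream, and in human cells SNORD11 guides the site.

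18S-Gm436 and 18S-Cm1272 are partial sites in both stages, guided in human cells by SNORD100 and SNORD66. 18S-Gm436 gave 0.546, 0.135 and 0.581 in egg and 0.701, 0.662 and 0.574 in larvae. The second egg library lay well below the rest, and from 5' ends alone the direction turned, with 0.695, 0.563 and 0.881 in egg and 0.686, 0.631 and 0.509 in larvae (difference -0.104, adjusted p = 0.656). The authors corrected its egg mean for a barcode effect, and with the corrected score the difference was 0.0826 instead of 0.225 (adjusted p = 0.702). 18S-Cm1272 gave 0.462, 0.514 and 0.168 in egg and 0.469, 0.515 and 0.676 in larvae. The first and second egg values were almost equal to larval ones, and the difference of 0.173 did not pass (adjusted p = 0.530). 18S-Um354, the third 18S site that was partial in egg, gave 0.508, 0.495 and 0.216 in egg and 0, 0.546 and 0.170 in larvae. Its ranges overlap (difference -0.168, adjusted p = 0.640, or -0.254 and 0.338 with the authors' corrected egg mean).

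The site with the largest lower larval mean was 18S-Cm346. It gave 0.893, 0.793 and 0.844 in egg and 0.666, 0.632 and 0.458 in larvae. All larval libraries lay below all egg libraries, and this also held from 5' ends alone, with 0.974, 0.935 and 0.99 against 0.723, 0.926 and 0.657. The difference was -0.258 (SE 0.106, 95% interval -0.494 to -0.0226), which did not pass after adjustment (adjusted p = 0.340, and 0.108 from 5' ends). The 32-cell libraries, mapped like the egg to early rRNA, gave 0.713, 0.476 and 0.251, the 12-somite libraries 0.789, 0.546 and 0.550, and adult tail 0.924 and 0.919. From 5' ends alone the 32-cell libraries gave 0.958, 0.974 and 0.960 and the 12-somite libraries 0.972, 0.959 and 0.936. With these the embryonic stages lay within the range of the egg, and the larval libraries were below all of them.

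At 4 of the sites with lower larval means the libraries lay much closer together from 5' ends alone. 28S-Um3904, guided by SNORD52 in human cells, gave 0.581, 0.933 and 0.980 in egg and 0.970, 0.463 and 0.501 in larvae. From 5' ends alone all 6 libraries were between 0.945 and 0.991, so both stages were then nearly full. 28S-Gm3923, guided by SNORD111 in human cells, gave 0.854, 0.637 and 0.822 in egg and 0.764, 0.912 and 0.252 in larvae, and from 5' ends alone 0.924 to 0.982 in all 6. Here too the low larval value was seen only with 3' ends included. 28S-Um4272 gave 0.707, 0.926 and 0.916 in egg and 0.855, 0.595 and 0.715 in larvae, and from 5' ends 0.986 to 0.997. Among these sites the authors' barcode correction covers 28S-Um3904 at both stages and 28S-Gm3923 in larvae. With the corrected scores the difference at 28S-Um3904 was -0.00596 (adjusted p = 0.971), and the larval mean of 28S-Gm3923 was higher than that of egg by 0.159 (adjusted p = 0.598). The egg mean of 28S-Gm3923 was uncorrected and came from all ends, whereas 2 larval libraries took their 5' end scores. The 2 means are thus of unlike measures. 18S-Am1678 gave 0.940, 0.929 and 0.904 in egg and 0.782, 0.903 and 0.773 in larvae (difference -0.105, adjusted p = 0.591), and its groups overlapped from 5' ends, at 0.963, 0.950 and 0.981 against 0.938, 0.958 and 0.989.

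**Figure D4:**
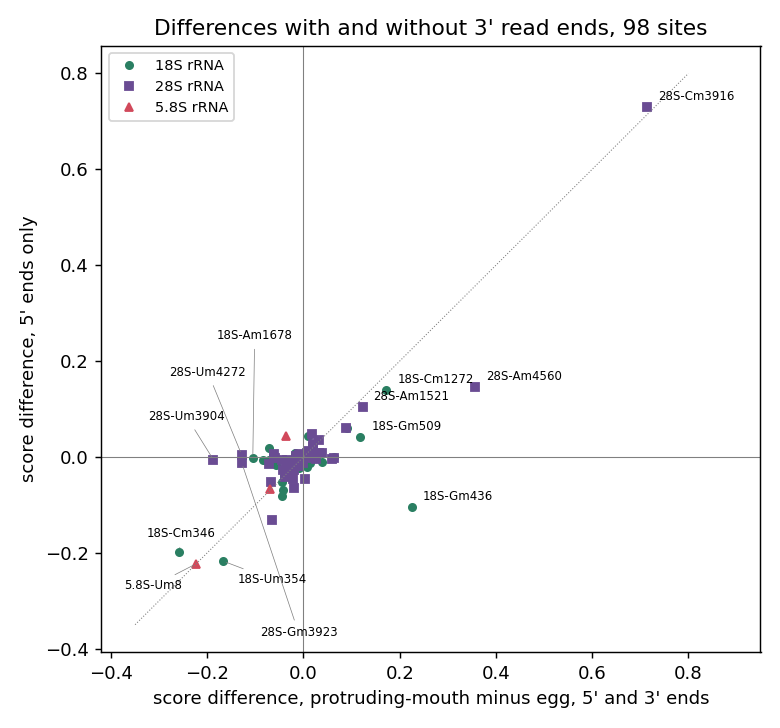
Score difference of protruding-mouth minus egg for each of 98 sites from 5' and 3' ends together (horizontal axis) against 5' ends alone (vertical axis), in score units, with colours and shapes for the rRNAs and a dotted line of equality. 28S-Cm3916 lies near the line at the upper right and 18S-Cm346 near it at the lower left. 5.8S-Um8, with no 3' ends in its window, must lie on the line, and 18S-Gm436 is on the other side of 0.

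At 20 sites (20.4%) the 3 egg and the 3 larval libraries did not overlap, 8 with higher larval scores (8.16%) and 12 with lower ones (12.2%). From 5' ends alone there were 25 such sites (25.5%), 7 higher (7.14%) and 18 lower (18.4%). At 11 sites (11.2%) the groups were apart in the same direction with both scores, which share the 5' ends. Besides 28S-Cm3916, 28S-Um4276, 28S-Am1521 and 18S-Cm346 these were 18S-Um287, 18S-Um799, 18S-Am1637, 28S-Um2824, 28S-Gm4166, 28S-Gm4464 and 28S-Um4590. For comparison, from all ends, 14.4% of 5987 unlisted rRNA positions paired between early and late rRNA also had groups that did not overlap. This share can be set only beside the 20.4% of listed sites, and not beside the counts from 5' ends or with both scores. Egg and larval libraries at unlisted positions can also tie at the lower limit of the score, so the 14.4% and the 20.4% are not strictly alike. Groups without overlap were thus common away from the listed sites as well.

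Among those 7 sites the differences were small. 18S-Am1637 gave 0.788, 0.832 and 0.879 in egg and 0.926, 0.904 and 0.936 in larvae (difference 0.0895, SE 0.0302, adjusted p = 0.219). 28S-Um4590 gave 0.867, 0.783 and 0.881 in egg and 0.940, 0.908 and 0.949 in larvae. Its difference of 0.0892 did not pass from all ends (adjusted p = 0.684), and from 5' ends alone the score rose by 0.0606 and passed (adjusted p = 0.0286), from 0.901, 0.916 and 0.919 to 0.982, 0.986 and 0.950. Both sites carry a base change between early and late rRNA nearby, as shown above. At 18S-Um799, which SNORD105 guides in human cells, the egg gave 0.974, 0.974 and 0.968 and the larvae 0.950, 0.869 and 0.928 (difference -0.0562, adjusted p = 0.219). 18S-Um287 gave 0.992, 0.982 and 0.979 against 0.939, 0.958 and 0.932 (difference -0.0410, adjusted p = 0.219). All libraries at both sites were still within the full range. 28S-Gm4166 and 28S-Gm4464 were named after their values were seen. 28S-Gm4166 gave 0.942, 0.945 and 0.943 against 0.949, 0.963 and 0.971, and 28S-Gm4464 gave 0.965, 0.937 and 0.931 against 0.901, 0.896 and 0.922.

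The test on 5' ends alone called 3 sites (3.06%), 28S-Cm3916 and 28S-Um4590, which rose, and 28S-Cm2352, which fell. 28S-Cm2352 was named after its values were seen. It gave 0.978, 0.984 and 0.967 in egg and 0.909, 0.906 and 0.917 in larvae from 5' ends (difference -0.0653, adjusted p = 0.0196). From all ends its groups overlapped, at 0.965, 0.926 and 0.843 against 0.901, 0.886 and 0.888 (adjusted p = 0.801). It is the last of 3 adjacent listed nucleotides, with 28S-Am2350 and 28S-Gm2351 before it.

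Further sites with groups that did not overlap from all ends were apart by less or not at all from 5' ends. 18S-Cm1703, in the decoding region of the small subunit and guided by SNORD43 in human cells, gave 0.955, 0.954 and 0.835 in egg and 0.985, 0.988 and 0.962 in larvae (difference 0.0638, adjusted p = 0.371). From 5' ends all 6 libraries were between 0.986 and 0.99. 28S-Cm4506 gave 0.840, 0.937 and 0.938 against 0.985, 0.961 and 0.961 (difference 0.0639, adjusted p = 0.327), and from 5' ends it was 0.989 to 0.995. 18S-Um1442, guided by SNORD61 in human cells, gave 0.981, 0.989 and 0.992 against 0.967, 0.812 and 0.967 (difference -0.0723, adjusted p = 0.469), and its groups overlapped from 5' ends. In each of these a single library, the third egg, the first egg or the second larval one, gave most of the gap. The other 4 sites with lower larval scores and no overlap differed by -0.0372 to -0.0304.

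The 3 sites of 5.8S rRNA all had lower larval means and none passed. 5.8S-Um8 gave 0.830, 0.617 and 0.880 in egg and 0.480, 0.388 and 0.791 in larvae, which overlap (difference -0.223, SE 0.112, adjusted p = 0.437). It is nucleotide 8 of the molecule, and since no 3' read end fell in its window its score comes from 5' ends alone. 5.8S-Um14, guided by SNORD71 in human cells, gave 0.727, 0.674 and 0.537 in egg and 0.416, 0.621 and 0.695 in larvae (difference -0.0686, adjusted p = 0.730). The ranges overlap. 5.8S-Gm75, guided by SNORD96 in human cells, gave 0.962, 0.946 and 0.908 against 0.962, 0.826 and 0.916, and from 5' ends alone its mean was higher in larvae by 0.0440 (adjusted p = 0.664). In adult tail 5.8S-Um8 reached 0.974 and 0.978 and 5.8S-Um14 0.954 and 0.955, above all 6 egg and larval libraries.

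**Figure D5:**
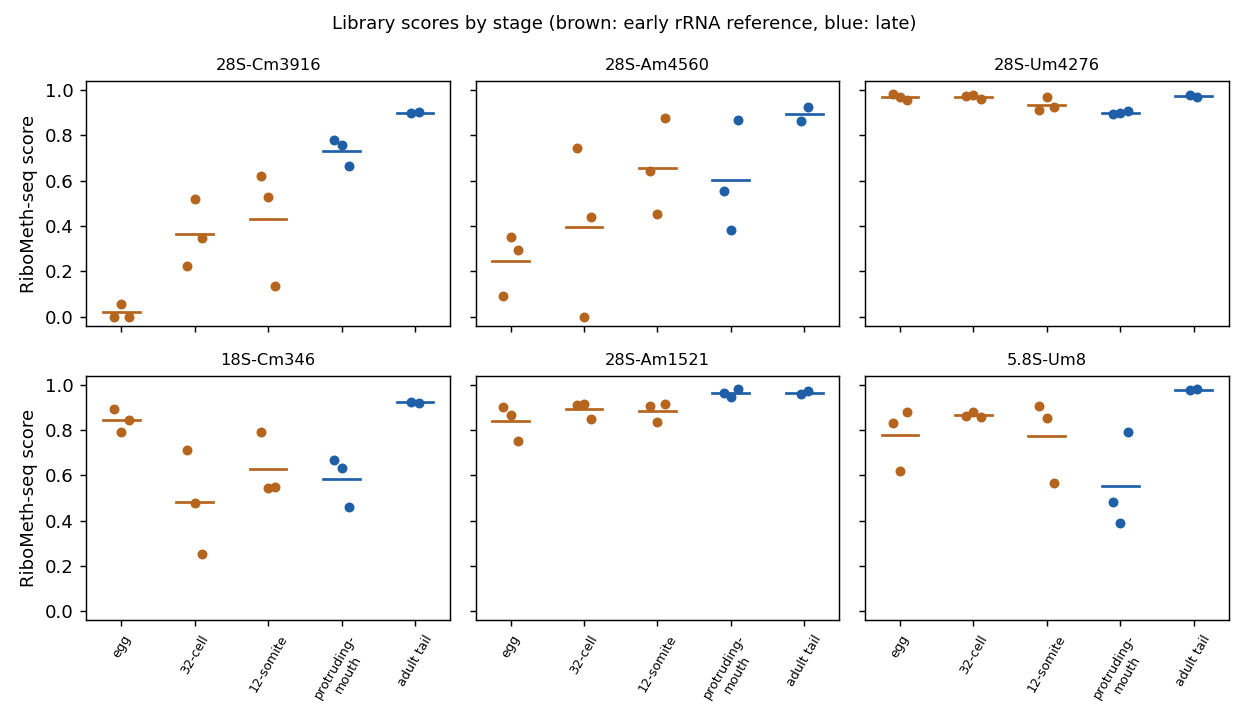
RiboMeth-seq score (vertical axis) of every library at 6 sites over the 5 stages (horizontal axis), with a bar for the stage mean, brown for early and blue for late rRNA as the mapping reference. At 28S-Cm3916 the egg is lowest and the adult highest; 18S-Cm346 and 5.8S-Um8 have their highest scores in adult tail, and 28S-Um4276 stays at 0.896 or more in all 14 libraries.

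The 16 sites with a sequence difference within 6 positions were split evenly, 8 with higher and 8 with lower larval means. Their median absolute difference was 0.0420, against 0.0226 at the 82 sites without one, and the share at an unadjusted p under 0.05 was 4 of 16 against 8 of 82. In the main fit 1 of the 16 was called, 28S-Cm3916, and 1 of the 82, 28S-Um4276. 28S-Am4560, 28S-Um4590, 18S-Am1637, 18S-Gm509, 18S-Um287 and 18S-Um1442 are described above. 28S-Um2824, which is a G in both zebrafish rRNAs, gave 0.981, 0.972 and 0.952 in egg and 0.944, 0.947 and 0.921 in larvae (difference -0.0308, adjusted p = 0.437). 18S-Gm644 gave 0.963, 0.953 and 0.935 against 0.938, 0.896 and 0.882 (difference -0.0454, adjusted p = 0.219), and 18S-Am512 0.981, 0.970 and 0.979 against 0.972, 0.967 and 0.862. The remaining sites, 18S-Am27, 18S-Um286, 28S-Gm1509, 28S-Gm1612, 28S-Gm4340 and 5.8S-Gm75, differed by between -0.0370 and 0.0200, with 18S-Am27 at 0.983 or more in all 6 libraries.

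A sequence difference near a position went with larger score differences at unlisted positions too. Of 2981 unlisted positions with a difference within 6, 10.0% had stage means at least 0.3 apart, against 4.19% of 3006 without one. Where the base directly before the position was substituted, as at 28S-Cm3916, this was 13.7% of 437 positions. The differences among these ran from -0.723 to 0.596. Over all 5987 unlisted positions the differences ran from -0.723 to 0.703, against 0.714 at 28S-Cm3916. Scores are limited at 0, and all 3 egg libraries were at 0 at the position with 0.703. The rises at that position and at 28S-Cm3916 therefore cannot be ranked. The part of the neighbouring base change in the 28S-Cm3916 score was not tested, since every larval library was mapped to the late rRNA and every egg library to the early one.

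By rRNA, 14 of 35 sites of the 18S and 23 of 60 of the 28S molecule had higher larval means, with median differences of -0.0124 and -0.0102. By nucleotide, 4 of 22 U sites were higher and 18 lower, with a median of -0.0388. The A, C and G sites had 11 of 29, 9 of 19 and 13 of 28 higher, with medians of -0.00598, -0.0158 and -0.00464. The U sites include 5.8S-Um8 and 5.8S-Um14. Of the 38 sites with another listed site within 6 positions, whose windows hold that neighbour, 10 were higher and 28 lower, against 27 and 33 of the 60 that stand alone. Over all sites the split was 37 to 61 and the median -0.0112.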

How the data were processed

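RiboMeth-seq had been run on whole-cell RNA of 14 zebrafish samples. The 4 small-RNA samples were not used. The submitters' processing notes name cutadapt 2.0 and Bowtie2 2.3.4.1. The deposited stage sheets give the count of read ends at each rRNA position (5' ends, and 5' and 3' ends together), without normalization. They also give a deposited RiboMeth-seq value per library, a fraction from 0 to 1, and the authors' overview gives it as a score, as a mean and SD per stage, in which, by its header, some means carry a barcode correction. Recomputed from the counts, the fraction differed from the deposited one by at most 5.00e-13. The library scores behind the corrected means were inferred, since only stage values are given. Replacing the scores of some libraries by those from 5' ends reproduced all 11 corrected egg and larval means. The corrected scores thus draw on the 5' ends. The adult scores were computed from counts, since the adult columns could be tied to the stage and not to a library. Over the 14 libraries together, 46 further columns of library values were not used.

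Scores of 98 sites were fitted with limma 3.58.1 in R 4.3.3 on the untransformed scale, with a mean for each of 5 stages, 14 libraries and Benjamini-Hochberg adjustment over the 98 sites (threshold 0.05). Sites needed a mean of 10 flanking read ends, and all had it. Biopython 1.88 aligned the early with the late sequences. The fit was run on simulated normal scores with 1 spread per site and, unlike the data, no limit at 0 or at 1. Noise was drawn separately for each library, so effects that libraries share were left out. There it called 56.8% of shifts of 0.1, 82.8% of 0.2, 93.6% of 0.4 and 98.8% of 0.7. Of unshifted sites it called 0.974%. Most listed sites scored near 1, where upward shifts of these sizes cannot occur. Each run also shifted many sites together, which makes the adjusted threshold easier to pass than where few sites differ. The simulated shares therefore do not give the recovery in the data. Named sites were those called, the 12 with the largest difference, those without overlap and at least 0.05 apart, those with a nearby sequence difference, the 5.8S sites and those not full at a stage. The sites and lists were chosen with earlier results of these data known.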

Additional observations from a re-analysis of the deposited data

Results flagged for a closer look

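At 2 positions that the authors do not list as methylated, the stage means were more than 0.7 apart. At 28S early position 873 (late position 857), the score was 0.726, 0.92 and 0.557 in egg and 0.0331, 0 and 0 in protruding-mouth larvae, a difference of -0.723. From 5' read ends alone the means were 0.546 in egg and 0.648 in larvae, so the direction was not kept. At 28S early position 2366 (late position 2349), the score was 0 in each egg library and 0.481, 0.833 and 0.793 in larvae, a difference of 0.703, and from 5' ends alone the means were 0 and 0.465. Both positions have a base difference between early and late rRNA within 6 positions. At early position 873 the base directly before it is substituted, as at 28S-Cm3916. The part of that difference in these scores was not tested.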

How the results depend on the processing

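28S-Cm3916 passed in 30 of 31 alternatives that could be run for it, with the 3' ends as the exception, and 28S-Um4276 in 7 of 32. These tallies include the fit without a coverage minimum, which repeats the main fit, since all sites met the minimum. Its pass at both sites was thus fixed in advance. They also include the barcode-corrected scores, which at both sites equal the uncorrected ones. The count of called sites, 2, was 3 from 5' ends alone. It was 1 with logit scores, with 2 unweighted flanking positions, with egg and protruding-mouth alone, with 4 stages without adult tail and with libraries centred on their median. The quasi-binomial model called 4. Among sites with no sequence difference within 6 positions limma called 0, with 8 at an unadjusted p under 0.05. Leaving out egg or larval libraries gave 1 each time, and leaving out libraries of the other stages 1 to 2. Alternatives chosen after seeing the data gave 1 (corrected scores, 4 stages), 2 (5' ends, egg and protruding-mouth alone), 8 (5' ends, logit) and, from 3' ends alone, 0 with 6 at an unadjusted p under 0.05. The replicate block gave 1. The numbers of egg and larval libraries did not pair them (correlations of -0.575, -0.101 and -0.112). Pairs of unlike number ran from -0.423 to 0.637, the latter for the third egg and first larval library. The first egg and second larval library gave 0.579. What these libraries share was not tested. A barcode block could not be fitted, since no barcode links the stages. The count of 13 sites ranged from 9 to 15; it was not run with logit scores, where 0.1 has another meaning, and the replicate block does not move its means. The count of 8 class differences was 5 with limits of 0.8 and 0.2, 3 from 5' ends alone and 5 to 8 without a library. The direction turned from 5' ends at 18S-Gm436 (-0.104), 28S-Gm1612 (-0.0462), 28S-Um4272 (0.00383), 28S-Cm4506 (-0.00184) and 5.8S-Gm75 (0.0440), with the quasi-binomial model at 28S-Gm1612 (-0.0445 in log odds) and with corrected scores at 28S-Gm3923 (0.159). At 28S-Gm3923 only the larval mean was corrected. Without one library the sign also turned at 18S-Am27 (-0.00212 to 0.00272), 28S-Gm1612 (-0.00171 to 0.0102), 28S-Gm3923 (-0.263 to 0.0669), 28S-Gm4340 (-0.0373 to 0.000987), 5.8S-Um14 (-0.128 to 0.0123) and 5.8S-Gm75 (-0.0671 to 0.000648). The sign turned in 1 alternative each at 18S-Um286, 18S-Um287, 18S-Am512 and 18S-Am1678, which makes 13 named sites. At 18S-Um287 the groups overlapped from 3' ends alone, at 0.822, 0.928 and 0.907 in egg and 0.881, 0.922 and 0.925 in larvae. None of these sites was called in the main fit, and the cause was not tested.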
